A study of Mus musculus with 18 samples.

Results

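This account covers 10 genes of secreted matrix glycoproteins in sorted cells of the mouse mammary gland: Tnc, Fbln2, Fn1, Sparc, Nid1, Nid2, Hspg2, Thbs1, Postn and Vcan. They were chosen by gene symbol, each had 1 row in the deposited table, and together they are 10 of 46257 gene IDs. RNA was sequenced from estrogen receptor positive (ER+) luminal cells, ER- luminal cells and basal cells, isolated by fluorescence-activated sorting at puberty, in adults and in mid pregnancy, with 2 libraries in each of 9 groups and 18 in all. Every group carried the genotype ERrtTA/TetOCre/rosaYFP, that is, a doxycycline-dependent activator, a Cre under its control and a yellow fluorescent reporter. The sources used here do not give the sorting gates, any doxycycline treatment, the ages of the mice or whether replicates were separate animals. The p-values therefore measure only the spread between these libraries, which may be technical. The question asked was how the luminal level of each gene stood relative to the basal level at each stage.

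These proteins fall into roles. Nidogen 1 and nidogen 2 (Nid1, Nid2) and perlecan (Hspg2) belong to the basement membrane, the sheet on which basal cells rest, where nidogens bridge the laminin and collagen IV networks. Fibulin 2 (Fbln2) is found in basement membranes and elastic fibres, fibronectin (Fn1) is a fibrillar protein bound by integrins, and versican (Vcan) is a large hyaluronan-binding proteoglycan. Tenascin C (Tnc), SPARC (Sparc), thrombospondin 1 (Thbs1) and periostin (Postn) are matricellular proteins, which modulate how cells contact matrix more than they build it. Luminal cells line the duct and do not for the most part touch the basement membrane, whereas basal cells are contractile and lie directly on it. The gland is remodelled in puberty and pregnancy.

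Values are read counts as scaled by the authors, to about 20000000 per library, and are called signal below. Recovered depth was 7674862 to 11292227 reads per library at puberty, 2406221 to 7900557 in adults, where the luminal libraries held only 2406221 to 3165237, and 5280331 to 6363534 in pregnancy. Log2 fold changes are of signal + 1, are given with their standard error (±), and come from a limma fit whose p-values were adjusted by Benjamini-Hochberg over 22315 genes. A gene is called at an adjusted p under 0.05. The summed signal of 10 basal markers (keratins, contractile genes, Trp63 and Oxtr) was 281783 to 321011 in puberty basal libraries, 163287 to 164161 in adult basal libraries and 311239 to 315761 in pregnancy basal libraries, although the puberty and pregnancy ones carry a cell type label that says luminal. In luminal libraries that sum was 2.2% (ER+) and 2.8% (ER-) of the basal mean at puberty, 2.0% and 3.7% in adults, and 9.5% and 12.1% in pregnancy. Puberty replicates differed widely in it, at 959 to 12468 in ER+ and 3301 to 13800 in ER- luminal libraries. So did their summed signal of 10 endothelial markers, at 1448 to 13394 and 2262 to 11588. Basal libraries in turn held luminal marker signal. Over 10 luminal markers it summed to 21622 to 51222 at puberty, 62418 to 84645 in adults and 36422 to 47132 in pregnancy. In ER+ luminal libraries that sum was 165966 to 194958, 155360 to 164594 and 108192 to 115045. In ER- luminal libraries it was 150650 to 165913, 143858 to 144905 and 95553 to 117678. The part of luminal RNA in the basal values was not tested. The summed signal of 10 fibroblast markers, among them Col1a1, Dcn and Pdgfra, was 62027 in the second puberty ER+ luminal library and 68620 in the second puberty ER- luminal library, against 18412 and 14950 in the first ones. Both second libraries thus stand apart, and results that move without them are given both ways. The second pregnancy ER+ luminal library also stands apart, on the side of ER- cells. Its 8 ER+ luminal markers summed to 32418, against 81490 in the first one and 6554 to 7682 in ER- luminal libraries of pregnancy. Elf5, a transcription factor of ER- luminal cells, stood at 11434 in it and at 4329 in the first, beside 12758 and 11272 in those ER- libraries. Elf5 is 1 of 8 ER- luminal markers, whose sum did not separate the populations in pregnancy. That sum was 51504 to 128363 in ER+ and 53483 to 132637 in ER- luminal libraries of pregnancy. In adults it was 9528 to 10040 in ER+ and 99689 to 108789 in ER- luminal libraries. No fibroblast marker was at 0 in any puberty library. In such bulk samples, fewer cells of a type and less RNA per cell cannot be told apart.

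Luminal libraries held less signal than basal ones for most of these genes at every stage. Taking the mean of the 4 luminal libraries as a percentage of the mean of the 2 basal ones, the median over the 10 genes was 13.6% at puberty, 19.4% in adults and 20.8% in pregnancy. At puberty 8 of 10 genes were called lower in luminal than in basal cells and 0 higher, against 11.3% of all tested genes called lower. In adults 9 of 10 were called lower, against 18.6% of all genes. All 10 endothelial markers (median -5) and 6 of 7 pericyte markers (median -3.58) were also lower in adult luminal than in adult basal cells, against 0 of 10 and 4 of 7 at puberty and 0 of 10 and 4 of 7 in pregnancy. The part of these cell types in the levels of the 10 genes was not tested. In pregnancy 8 of 10 were called lower and 1, Tnc, was called higher, against 8.64% of all genes called lower and 11.1% called higher. The median log2 fold change of the 10 genes was -2.92 at puberty, -2.77 in adults and -2.33 in pregnancy, against 0.02, -0.12 and 0.17 over all tested genes. Without the second pregnancy ER+ luminal library, 6 of 10 were called lower in pregnancy, the calls of Nid1 and Nid2 being lost, and Tnc was still called higher.

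**Figure D1:**
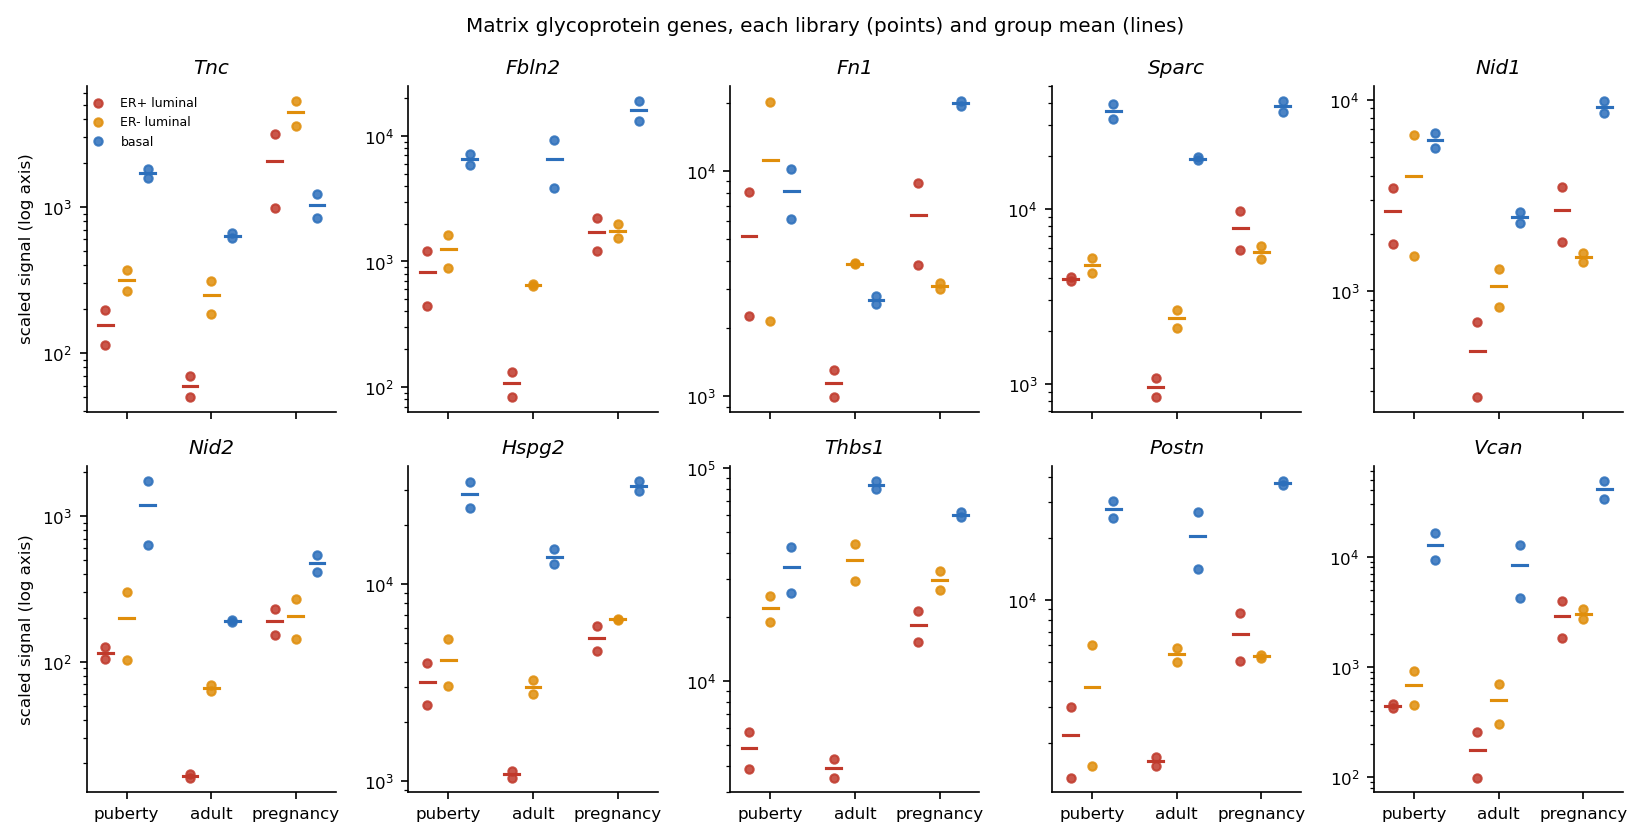
Signal of each of the 10 genes in each of the 18 libraries on log axes, with stages along the x axis and, within a stage, ER+ luminal, ER- luminal and basal cells from left to right. Points are libraries and lines are means of 2 libraries. Tnc is the gene whose pregnancy ER- luminal libraries (3560 and 5317) lie above its basal ones (844 and 1222), and the 2 Fn1 points of puberty ER- luminal cells lie far apart (2154 and 20277).

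Tnc encodes tenascin C, a hexameric glycoprotein produced in developing and remodelling tissue, and lies on the minus strand of chromosome 4 (63959785 to 64047015, GRCm38). Its luminal to basal relation turned over in pregnancy. At puberty it stood at 199 and 114 in ER+ luminal libraries and 373 and 265 in ER- luminal libraries, against 1826 and 1574 in basal libraries. Adult libraries held 70 and 50 in ER+ luminal cells and 185 and 314 in ER- luminal cells, against 661 and 610 in basal cells. The adult ER+ values rest on 9 and 6 recovered reads. Every luminal library lay below every basal one at these stages, and the luminal mean was 14.0% of the basal mean at puberty and 24.4% in adults.

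In pregnancy Tnc stood at 986 and 3155 in ER+ luminal libraries and 3560 and 5317 in ER- luminal libraries, against 844 and 1222 in basal libraries. The luminal mean was 315.1% of the basal mean. Both ER- libraries lay above both basal ones, while the first ER+ library fell between them. The log2 fold change of luminal over basal cells was -2.96 ± 0.4 at puberty (adjusted p = 0.000149), -2.4 ± 0.4 in adults (adjusted p = 0.000696) and 1.45 ± 0.4 in pregnancy (adjusted p = 0.0232). By population, Tnc in pregnancy differed from basal cells by 2.1 ± 0.47 in ER- luminal cells (adjusted p = 0.00825), whereas the ER+ difference of 0.8 ± 0.47 was not called (adjusted p = 0.316, 95% interval -0.21 to 1.8). Without the second pregnancy ER+ luminal library the ER+ difference was -0.04 (adjusted p = 0.99), and that of both populations combined was 1.03 and still called (adjusted p = 0.0376). The pregnancy call for both luminal populations combined was lost without the second ER- luminal library (1.3, adjusted p = 0.0702), without the first basal library (1.18, adjusted p = 0.223), without the second basal library (1.71, adjusted p = 0.0609) and with that stage's libraries alone (adjusted p = 0.133).

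The change itself was tested as the difference of the luminal over basal ratios between stages. Tnc changed by 3.84 ± 0.57 on the log2 scale for pregnancy minus adult (adjusted p = 0.00217) and by 4.4 ± 0.57 for pregnancy minus puberty (adjusted p = 0.00519). The adult minus puberty change was 0.56 ± 0.57 and was not called (adjusted p = 0.622). The pregnancy minus adult call held in all 26 alternatives, with values of 3.43 to 4.26, the lowest being that without the second pregnancy ER+ luminal library (adjusted p = 0.000548). The pregnancy minus puberty value was 4.14 without the first pregnancy basal library (adjusted p = 0.0528). Within populations, Tnc was higher in pregnancy than in adults by 4.87 ± 0.47 in ER+ cells (adjusted p = 1.74e-05) and by 4.17 ± 0.47 in ER- cells (adjusted p = 0.00018), while the basal difference of 0.68 ± 0.47 was not called (adjusted p = 0.391, interval -0.33 to 1.68). Without the second pregnancy ER+ library the ER+ change was 4.04 (adjusted p = 3.49e-05).

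Basal markers also stood higher in pregnancy luminal libraries than in those of other stages, at 9.5% and 12.1% of the basal sum, and their part in the luminal levels of the 10 genes was not tested. For Tnc the mean was 200.4% of the basal mean in ER+ cells and 429.7% in ER- cells, above each of the 10 basal markers, which reached at most 19.2% in ER+ cells and 32.1% in ER- cells. For Vcan the percentage was 7.1% in ER+ cells, that of the lowest marker there, and 7.5% in ER- cells, below the lowest marker at 9.4%. Fbln2 stood at 10.6% and 10.9%, close to the marker medians of 9.1% and 10.6%. In adults the marker medians were lower, at 1.8% in ER+ cells and 2.4% in ER- cells, with Tagln as the exception at 139.3% and 349.2%. The summed signal of 10 endothelial markers moved further, to 130.3% (ER+) and 106.1% (ER-) of the basal sum in pregnancy, against 7.3% and 5.1% in adults. It was 6272 to 10506 in ER+ and 6610 to 7050 in ER- luminal libraries of pregnancy, against 5873 to 7006 in basal ones. In adults it was 1099 to 1263 in ER+ and 688 to 952 in ER- luminal libraries, against 15061 to 17261 in basal ones. Single endothelial markers in pregnancy reached at most 366.9% of the basal mean in ER+ and 123.6% in ER- cells. Of 11 immune markers, among them Ptprc and Lyz2, the highest stood at 147.4% and 387.7% there.

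**Figure D2:**
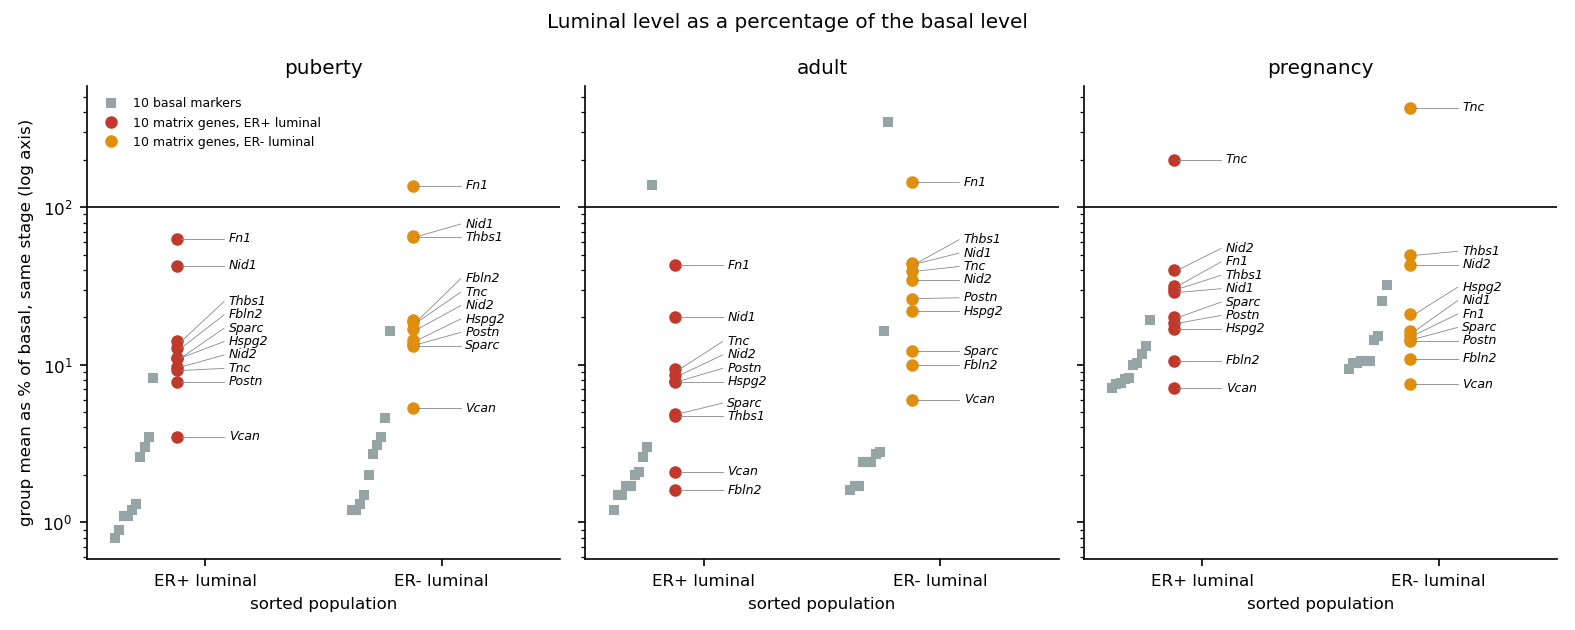
Group mean in ER+ and ER- luminal cells as a percentage of the basal mean of the same stage, on a log axis, for the 10 genes (circles) and 10 basal markers (grey squares). The line marks 100%. Tnc in pregnancy (200.4% and 429.7%) and Fn1 in puberty and adult ER- cells (137.2% and 144.6%) lie above it, as does the marker Tagln in adults.

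Tnc and Vcan stood at opposite ends of these percentages in pregnancy, and the 250 bases before their annotated starts are shown for that reason, 5′ to 3′ on the gene's strand, from RefSeq (GRCm38.p6). The table holds another Tnc start, whose window (chr4:64046937-64047186) has the same letters 205 and 246 bases before it and is not shown. The windows shown are chr4:64047016-64047265 for Tnc and chr13:89742513-89742762 for Vcan, both on the minus strand. Capitals mark the TATAAA and GGGCGG letters found on either strand. GGGCGG on the other strand reads CCGCCC.
Tnc: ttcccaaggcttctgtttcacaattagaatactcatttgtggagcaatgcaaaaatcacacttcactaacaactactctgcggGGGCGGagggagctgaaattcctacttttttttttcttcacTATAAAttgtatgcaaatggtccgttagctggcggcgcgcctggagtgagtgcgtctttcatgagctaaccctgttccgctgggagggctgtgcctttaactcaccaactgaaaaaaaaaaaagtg
Vcan: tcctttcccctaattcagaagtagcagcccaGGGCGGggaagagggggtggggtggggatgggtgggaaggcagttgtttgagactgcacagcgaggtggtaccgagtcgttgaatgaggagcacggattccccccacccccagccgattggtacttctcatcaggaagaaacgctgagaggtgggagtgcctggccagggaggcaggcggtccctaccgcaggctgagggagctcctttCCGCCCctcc
The Tnc window held TATAAA 126 bases and GGGCGG 167 bases before the start, and the Vcan window held GGGCGG on either strand, 219 and 10 bases before it. TATAAA was present in 12.4% and GGGCGG in 32.7% of 32851 such windows. Neither window held TGANTCA, TTCNNNGAA or GGAATG, which 6.7%, 7.0% and 12.6% of windows held. These matches describe letters, not binding.

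Among the basement membrane genes, Hspg2, which encodes the heparan sulfate proteoglycan perlecan, was lower in luminal cells at each stage. At puberty it stood at 3951 and 2439 in ER+ and 5228 and 3033 in ER- luminal libraries, against 33036 and 24392 in basal libraries. In adults it stood at 1040 and 1122 in ER+ and 3252 and 2776 in ER- luminal libraries, against 14987 and 12577 in basal libraries. In pregnancy it stood at 6106 and 4573 in ER+ and 6655 and 6583 in ER- luminal libraries, against 33280 and 29815 in basal libraries. No luminal library reached a basal one at its stage. The log2 fold change was -3.01 ± 0.22 at puberty, -2.93 ± 0.22 in adults and -2.41 ± 0.22 in pregnancy (adjusted p = 4.96e-07, 4.88e-07 and 7.43e-06).

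The nidogens were less uniform. At puberty Nid1 stood at 1758 and 3474 in ER+ and 1533 and 6499 in ER- luminal libraries, against 5591 and 6694 in basal libraries. The second library of each luminal pair was the higher, and that of ER- cells reached the basal range. The puberty difference was not called (-1.13 ± 0.56, adjusted p = 0.195, 95% interval -2.37 to 0.11), and without both second luminal libraries it was -1.9 (adjusted p = 0.00844). In adults the log2 fold change was -1.84 ± 0.56 (adjusted p = 0.0303), with luminal libraries at 280, 693, 825 and 1304, against 2590 and 2269 in basal libraries. In pregnancy Nid1 stood at 3496 and 1799 in ER+ and 1582 and 1427 in ER- luminal libraries, against 9853 and 8543 in basal libraries, a log2 fold change of -2.24 ± 0.56 (adjusted p = 0.0185). The adult call ended without the first ER+, the first ER- or either basal library of that stage, and the pregnancy call without the second ER+ or either basal library, with adjusted p-values up to 0.119 and 0.138.

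Nid2, the scarcer nidogen per kilobase of exon, was called lower in luminal cells at each stage, by -2.89 ± 0.43 at puberty, -2.49 ± 0.43 in adults and -1.3 ± 0.43 in pregnancy (adjusted p = 0.000171, 0.000565 and 0.0472). Adult ER+ libraries held 16 and 17 and adult ER- libraries 69 and 63, against 194 and 188 in basal libraries. These luminal values rest on 2 recovered reads in each ER+ library and 10 in each ER- library. The pregnancy call was lost in 14 of 26 alternatives, each without 1 library or without the filter on low values, with adjusted p-values up to 0.306. Its exons share 437 bases with Rtraf on the opposite strand. Rtraf had a mean signal of 1556.6, so that without knowledge of strand the Nid2 values are uncertain.

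Sparc encodes SPARC, a collagen-binding matricellular protein, and had narrow replicate spread. At puberty it stood at 3867 and 4102 in ER+ and 4293 and 5250 in ER- luminal libraries, against 39562 and 32466 in basal libraries. Adult libraries held 838 and 1073 in ER+ and 2073 and 2657 in ER- luminal cells, against 19734 and 18971 in basal cells. Pregnancy libraries held 9704 and 5777 in ER+ and 6137 and 5167 in ER- luminal cells, against 41365 and 35934 in basal cells. Luminal and basal libraries did not overlap at any stage. The log2 fold change was -3.04 ± 0.19 at puberty, -3.7 ± 0.19 in adults and -2.57 ± 0.19 in pregnancy (adjusted p = 4.21e-08, 2.56e-09 and 5.32e-07).

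Thbs1, an activator of latent TGF-beta and an inhibitor of angiogenesis, had the highest signal per kilobase of the 10 genes in adult basal cells. It was also first in all ER- luminal groups. At puberty it stood at 5781 and 3877 in ER+ and 24981 and 18956 in ER- luminal libraries, against 25868 and 42474 in basal libraries. Adult libraries held 3514 and 4281 in ER+ and 44142 and 29621 in ER- luminal cells, against 80320 and 86953 in basal cells. Pregnancy libraries held 15295 and 21338 in ER+ and 32962 and 26873 in ER- luminal cells, against 62114 and 58828 in basal cells. ER- cells thus stood at 64.3%, 44.1% and 49.5% of the basal mean at puberty, in adults and in pregnancy, whereas ER+ cells stood at 14.1%, 4.7% and 30.3%. Over both luminal populations the log2 fold change was -1.71 ± 0.24, -2.82 ± 0.24 and -1.38 ± 0.24 at these stages, and each was called (adjusted p = 0.000164, 2.74e-06 and 0.00138). For ER- cells alone the puberty value of -0.61 ± 0.27 was not called (adjusted p = 0.158, 95% interval -1.19 to -0.02).

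Postn, an integrin ligand that promotes collagen assembly, stood at 8672 and 5012 in ER+ and 5202 and 5404 in ER- luminal libraries in pregnancy, against 36418 and 38113 in basal libraries. Its log2 fold change was -3.49 ± 0.5 at puberty, -2.72 ± 0.5 in adults and -2.66 ± 0.5 in pregnancy (adjusted p = 0.000566, 0.00248 and 0.00462). The pregnancy value without the first pregnancy basal library was -2.69 (adjusted p = 0.0504). In the puberty luminal libraries it stood at 1354 and 3003 in ER+ cells and 1535 and 6001 in ER- cells, with the higher value in the second library of each. Without these second libraries the Postn difference at puberty was -4.27 (adjusted p = 9.73e-07).

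Vcan had the lowest luminal percentage of the 10 genes at each stage, and Fbln2 was next to it in adults and in pregnancy. Vcan stood at 4.4%, 4.0% and 7.3% of the basal mean at puberty, in adults and in pregnancy, and its log2 fold change was -4.52 ± 0.58, -4.75 ± 0.58 and -3.82 ± 0.58 (adjusted p = 0.000282, 0.000199 and 0.00141). In pregnancy it held 3970 and 1812 in ER+ and 3375 and 2719 in ER- luminal libraries, against 48458 and 33338 in basal libraries. Adult libraries held 256 and 99 in ER+ and 703 and 301 in ER- luminal cells, against 12641 and 4224 in basal cells. The adult basal libraries differed from each other 2.99-fold, and the lower of them (4224) still lay above the highest adult luminal library (703).

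Fbln2 was 16.0%, 5.8% and 10.8% of the basal mean at the same 3 stages, with log2 fold changes of -2.79 ± 0.47, -4.51 ± 0.47 and -3.23 ± 0.47 (adjusted p = 0.0013, 4.66e-05 and 0.000865). Adult ER+ libraries held 132 and 83 and adult ER- libraries 641 and 658, against 9239 and 3858 in adult basal libraries. In pregnancy the luminal libraries held 2224, 1205, 1992 and 1532, against 19008 and 13222 in basal libraries.

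Fn1 departed from the rest before pregnancy. At puberty it stood at 2265 and 8046 in ER+ and 2154 and 20277 in ER- luminal libraries, against 6100 and 10245 in basal libraries. The 2 puberty ER- libraries differed 9.41-fold, the widest gap of any of the 10 genes in any group. The puberty difference was -0.57 ± 0.78 (adjusted p = 0.681, 95% interval -2.3 to 1.15) and became -1.84 without both second luminal libraries (adjusted p = 0.00278). In adults the ER- luminal libraries held 3899 and 3860 and the ER+ luminal libraries 1311 and 990, against 2791 and 2574 in basal libraries. Both ER- libraries lay above, and both ER+ libraries below, the basal ones. The luminal over basal difference was -0.35 ± 0.78 in adults (adjusted p = 0.772, interval -2.08 to 1.38), and for ER- cells alone it was 0.53 ± 0.9 (adjusted p = 0.746, interval -1.46 to 2.53).

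In pregnancy Fn1 stood at 8875 and 3817 in ER+ and 3190 and 2989 in ER- luminal libraries, against 20477 and 19427 in basal libraries, without overlap. The difference of -2.23 ± 0.78 was not called (adjusted p = 0.0712). It was called with median-ratio size factors (-2.42, adjusted p = 0.048), with edgeR on recovered reads (-2.32, adjusted p = 0.027), with that stage's libraries alone (adjusted p = 0.0018), without the first or the second puberty ER- luminal library (adjusted p = 0.00939 and 0.00942) and without both second puberty luminal libraries (adjusted p = 0.000303). Fibroblast marker signal moved with Fn1. In adults its sum was 6998 to 8724 in ER+ and 19362 to 24119 in ER- luminal libraries, against 16449 to 21791 in basal libraries. In pregnancy it was 82081 and 39886 in the first and second ER+ luminal libraries and 21381 to 24824 in ER- luminal libraries, against 146619 to 159478 in basal libraries. The part of fibroblast RNA in the Fn1 values was not tested.

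**Figure D3:**
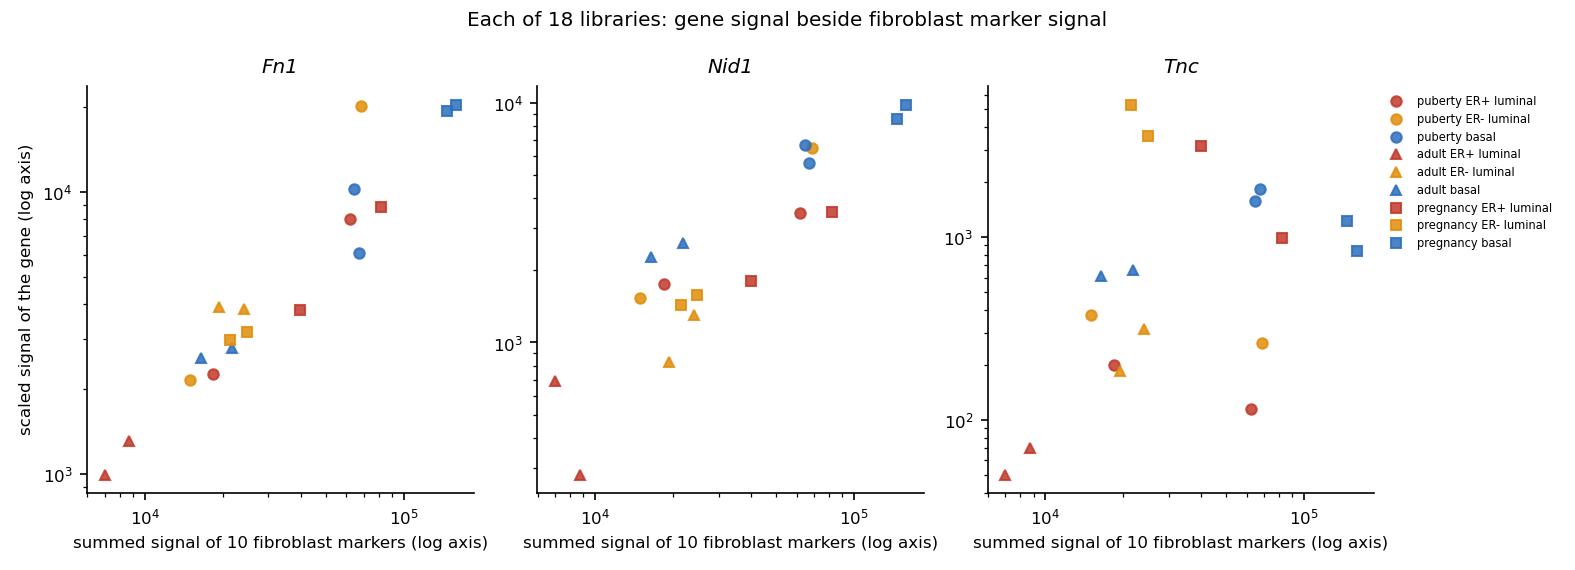
Signal of Fn1, Nid1 and Tnc in each of 18 libraries against the summed signal of 10 fibroblast markers in the same library, both on log axes. Colour gives the sorted population and marker shape the stage. The puberty luminal libraries with marker sums of 62027 and 68620 hold Fn1 at 8046 and 20277 and Nid1 at 3474 and 6499. The 2 pregnancy ER- libraries with the highest Tnc hold sums of 21381 to 24824. The part of fibroblast RNA in these values was not tested.

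Beside Tnc, a change of the luminal over basal ratio was called for Sparc and Thbs1 between adult and pregnancy. That made 3 of 10 genes, all toward a higher luminal ratio, against 4.67% of all genes called in that direction. The ratio of Sparc changed by 1.13 ± 0.26 (adjusted p = 0.0192) and that of Thbs1 by 1.44 ± 0.33 (adjusted p = 0.0237), beside a median of 0.27 over all tested genes. For this change the median was 4.83 over the 10 endothelial markers (3 called higher), 2.23 over the 10 basal markers (2 higher, 1 lower), 1.94 over the 7 pericyte markers (1 higher) and -1.07 over the 10 fibroblast markers (0 called). Their part in the changes of Sparc, Thbs1 and Tnc was not tested. Both calls were lost when either adult or either pregnancy basal library was left out, with adjusted p-values of 0.0596 to 0.107. Both ratios moved more in ER+ than in ER- cells. From adult to pregnancy, Sparc over basal cells went from -4.35 to -2.36 in ER+ cells and from -3.04 to -2.78 in ER- cells. Thbs1 went from -4.43 to -1.74 and from -1.21 to -1.02. The adult ER+ libraries are shallow and the second pregnancy ER+ library stands apart. The change of ratio by population was not tested. For pregnancy minus puberty Tnc alone was called, against 0.488% of all genes called in that direction. For adult minus puberty limma called 0 of 10, against 6.59% of all genes, while 3 (Fbln2, Sparc and Thbs1, each lower) had an unadjusted p under 0.05, and edgeR called 0. Without both second puberty luminal libraries, Fbln2 (-2.3), Thbs1 (-1.36) and Postn (1.55) were called for adult minus puberty, and without the second puberty ER+ luminal library alone Fbln2 and Thbs1 were. For Fn1 the pregnancy minus adult change of -1.88 ± 1.1 was not called (adjusted p = 0.359, interval -4.33 to 0.56), but was without both second puberty luminal libraries (adjusted p = 0.0185).

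**Figure D4:**
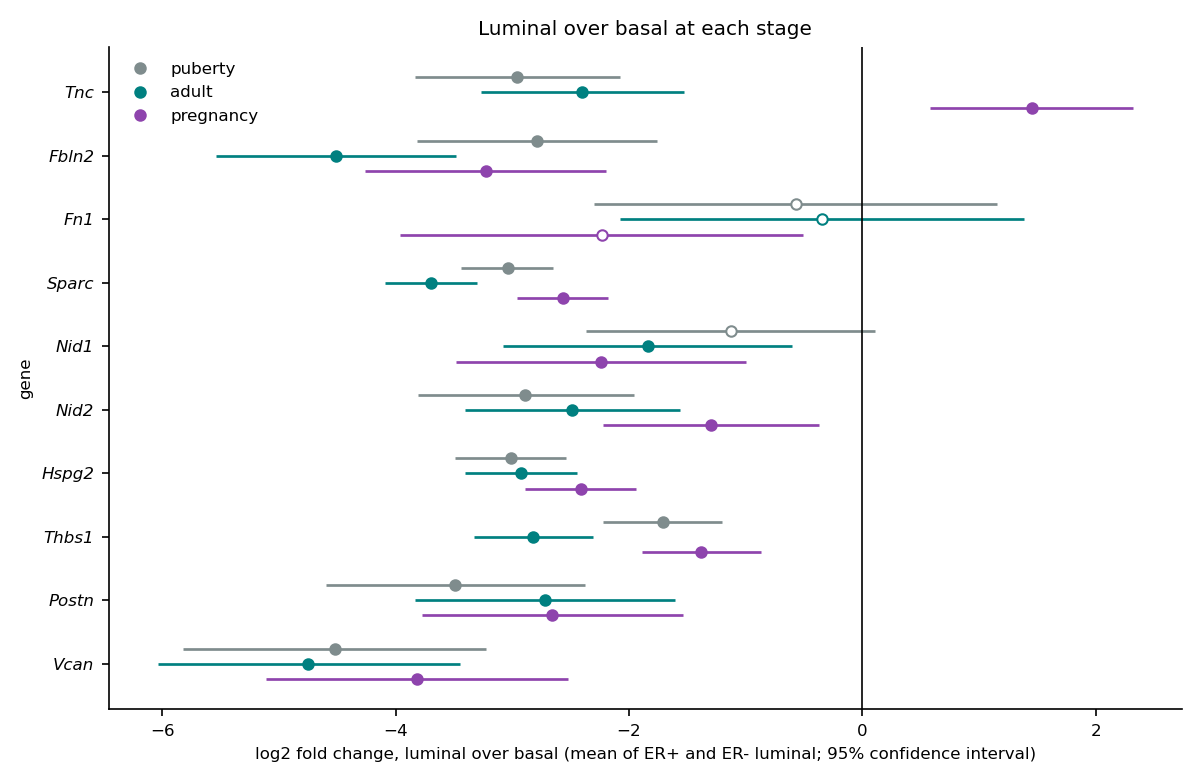
Log2 fold change of luminal over basal cells at puberty, in adults and in pregnancy for each of the 10 genes, with 95% confidence intervals as lines. Filled circles passed an adjusted p of 0.05 and open ones did not. Tnc in pregnancy (1.45) is the one value right of 0, and the 3 Fn1 values and the puberty Nid1 value are open.

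Taken by population, at puberty 8 of 10 genes were lower in ER+ luminal than in basal cells (11.5% of all genes) and 7 in ER- luminal than in basal cells (8.82%). In adults these counts were 9 (22.7%) and 6 (10.8%), and in pregnancy 6 (6.36%) and 7 (8.25%), Tnc being the 1 called higher in ER- cells of pregnancy (10.3% of all genes). Without the first pregnancy basal library the pregnancy count fell to 5 of 10 for all luminal cells and to 4 for ER- cells, and without the second pregnancy ER- luminal library the ER- count was 5.

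Between the luminal populations, most calls were made in adults. There 6 of 10 genes were called lower in ER+ than in ER- luminal cells, against 11.5% of all genes. The log2 differences were -3.22 ± 0.27 for Thbs1, -2.62 ± 0.54 for Fbln2, -2.01 ± 0.47 for Tnc, -1.94 ± 0.5 for Nid2, -1.47 ± 0.26 for Hspg2 and -1.31 ± 0.21 for Sparc. For Nid2 the adult ER+ libraries held 2 recovered reads each, and for Tnc 9 and 6. These adult luminal libraries were the shallowest, and with the 4 of them fitted alone 0 of the 6 were called, and without the second adult ER+ library 3 were. At puberty Thbs1 was the 1 gene called lower in ER+ cells (-2.2 ± 0.27, adjusted p = 0.000141), against 6.84% of all genes. In pregnancy limma called 0 of 10, against 1.85% in either direction, 2 genes (Tnc and Thbs1, both lower in ER+ cells) had an unadjusted p under 0.05, and edgeR called 0. Without the second pregnancy ER+ luminal library Tnc was called lower in ER+ than in ER- cells (-2.14, adjusted p = 0.0081).

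Across stages within a population, the summed signal of the 10 genes was lowest in adult ER+ luminal cells. They made up 0.3% and 0.245% of the library signal in pregnancy ER+ cells, against 0.046% and 0.05% in adult ER+ cells, and 1.37% and 1.202% in pregnancy basal cells, against 0.792% and 0.802% in adult basal cells. Pregnancy ER+ cells were called higher than adult ones in 9 of 10 genes, against 12.8% of all genes, Fn1 being the exception. The log2 changes were 4.06 ± 0.67 for Vcan, 3.95 ± 0.54 for Fbln2, 3.43 ± 0.5 for Nid2 and 2.98 ± 0.21 for Sparc, beside 4.87 for Tnc. Their adult side is thin, with 2 recovered reads of Nid2 in each adult ER+ library and 9 and 6 of Tnc. The median over the 10 genes was 2.74. Over the markers of other cell types it was 3 for 10 basal markers (6 called higher, 1 lower), 2.71 for 10 fibroblast markers (5 higher), 3.39 for 10 endothelial markers (5 higher) and 2.66 for 7 pericyte markers (3 higher), and their part in these changes was not tested. Without the second pregnancy ER+ library 8 were called, the call of Postn being lost. With the adult and pregnancy ER+ libraries fitted alone, 0 were called. In ER- cells 5 of 10 were called higher in pregnancy than in adults (8.89% of all genes), namely Tnc, Vcan (2.72 ± 0.67), Nid2 (1.56 ± 0.5), Sparc (1.26 ± 0.21) and Hspg2 (1.14 ± 0.26). In basal cells 2 were called higher in pregnancy (2.92% of all genes), Hspg2 (1.2 ± 0.26) and Sparc (0.99 ± 0.21). The ER- count was 2 without the second adult or the second pregnancy ER- library and 3 without the first pregnancy ER- library. The basal count was 0 without the second adult basal or either pregnancy basal library, and 4 without the first adult basal or either puberty ER- luminal library.

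Relative to puberty, adult ER+ cells were lower in Fbln2 (-2.8 ± 0.54), Nid2 (-2.72 ± 0.5), Sparc (-2.07 ± 0.21) and Hspg2 (-1.52 ± 0.26), that is 4 of 10 against 4.50% of all genes. The Nid2 value rests on 2 recovered reads in each adult ER+ library. Without both second puberty luminal libraries Nid1 (-1.99, adjusted p = 0.046) was called too, which made 5. Adult ER- cells were lower in 1 gene, Sparc (-1.02 ± 0.21), against 2.42% of all genes. Adult basal cells were lower in 3 (4.58% of all genes), Nid2 (-2.46 ± 0.5), Hspg2 (-1.05 ± 0.26) and Sparc (-0.89 ± 0.21), and higher in Thbs1 (1.33 ± 0.27), against 5.15% of all genes called higher. Relative to puberty, pregnancy ER+ cells were higher in 4 genes (Tnc 3.54 ± 0.47, Vcan 2.59 ± 0.67, Thbs1 1.93 ± 0.27 and Sparc 0.91 ± 0.21), against 7.34% of all genes. Pregnancy ER- cells were higher than puberty ones in Tnc alone (3.79 ± 0.47), against 8.78% of all genes. In basal cells limma called 0 of 10 between pregnancy and puberty, against 2.07% of all genes in either direction, 4 had an unadjusted p under 0.05, and edgeR called 0. The adult over puberty count in basal cells was 0 without the first puberty or the second adult basal library. In ER- cells it was 0 without the second puberty or the first adult ER- library and 2 without the first puberty one. The pregnancy over puberty count in ER+ cells was 2 without the second puberty or the first pregnancy ER+ library, and in ER- cells it was 4 without the first puberty ER- library and 2 without either ER+ library of puberty or any 1 adult library.

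Per kilobase of exon, Thbs1 and Sparc held the top places in basal cells. In pregnancy basal cells Sparc averaged 10203 and Thbs1 9957 signal units per kilobase, against 13772 for Thbs1 and 5109 for Sparc in adult basal cells. In pregnancy ER- luminal cells Tnc stood at 571 per kilobase, rank 4 of the 10. In basal cells it was rank 9 at both these stages, at 133 in pregnancy and 81.8 in adults.

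Other matrix genes were counted by list, beside the shares of all tested genes called lower and higher in luminal cells, which were 11.3% and 10.2% at puberty, 18.6% and 12.3% in adults and 8.64% and 11.1% in pregnancy. Of 42 other matricellular proteins and glycoproteins, 20 were called lower and 2 higher in luminal than in basal cells at puberty, 26 and 2 in adults and 18 and 2 in pregnancy, where the median log2 fold change was -1.16. In pregnancy Matn2, a matrilin, gave -3.47 ± 0.49, Fbln7, a fibulin, -3.2 ± 0.45, Spock2, a proteoglycan of the SPARC family, -2.86 ± 0.25 and Fbn1, which forms microfibrils, -2.86 ± 0.6. Npnt, which encodes the basement membrane integrin ligand nephronectin and was picked out after its values were seen, was called higher in luminal cells at puberty (1.43 ± 0.26), in adults (1.91 ± 0.26) and in pregnancy (1.38 ± 0.26). Its luminal libraries spanned 702 to 853 in pregnancy, against 244 and 348 in basal libraries.

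Of 20 proteoglycans, 9 were called lower and 2 higher at puberty, 9 and 0 in adults and 11 and 0 in pregnancy, beside the same shares of all genes. Fmod, a collagen fibril binder, gave -3.7 in pregnancy, with luminal libraries at 517 to 855 and basal ones at 8163 and 9079. Gpc6, a membrane-anchored glypican, gave -3.31 and Prelp, a small leucine-rich proteoglycan, gave -2.75. Ncan, called as well, had 0 to 4 in luminal libraries and 50 and 60 in basal ones, too little for a useful fold. Of 20 receptors for the proteins described, 13 were called lower and 2 higher at puberty, 15 and 0 in adults and 12 and 1 in pregnancy. Itgb3, an integrin chain that binds several of them, gave -3.34, with luminal libraries at 181 to 283 and basal ones at 2289 and 2332. Itga9, a tenascin C receptor chain, gave -2.63, Itga8, which pairs with the integrin beta 1 chain, gave -1.95, and Itga3, a laminin receptor chain, gave -1.91.

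The ratio changed between adult and pregnancy in 8 of the 42 matricellular genes and glycoproteins (7 up, 1 down), in 1 of 20 proteoglycans and in 5 of 20 receptors (2 up, 3 down), against 4.67% of all genes up and 1.51% down. For Vtn, vitronectin, it changed by 3.84 ± 0.96 (adjusted p = 0.0277), with luminal libraries at 31 to 163 in pregnancy and 0 to 17 in adults, against basal libraries at 136 to 149 in pregnancy and 176 to 193 in adults. Mmrn1 and Spock1 were called too, but 3 of 4 adult luminal libraries were at 0 for each, so that their fitted size depends on the value added before the logarithm. Adult luminal Vtn is thin as well, since 1 recovered read equals 6.26 to 8.25 signal units in those libraries. Its fitted size depends on the added value too. Bgn, biglycan, changed by 1.54 ± 0.34. Cd47, a thrombospondin receptor, changed by 1.56 ± 0.25 (adjusted p = 0.00239), with luminal libraries at 3225 to 7341 and basal ones at 3534 and 4004 in pregnancy. Itgb8 changed by 1.85 ± 0.5 and Itgb3 by -1.69 ± 0.41.

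Across the 9 group means, the patterns of the 10 genes resembled each other to different degrees. The median Pearson correlation of a gene with the other 9 was lowest for Tnc (0.66) and highest for Sparc (0.93). Depth and basal marker content differed between groups, their part in these correlations was not tested, and the values are descriptions. Among genes above the median level, those nearest to Tnc were Fut4 (r = 0.986) and Gnb4 (0.968), and those nearest to Fn1 were Mfap5 (0.979), itself 1 of the fibroblast markers, and Islr (0.978). Nearest to Sparc were Gria3 (0.997) and Aff3 (0.993), to Hspg2 Nkd1 (0.995) and Tril (0.994), to Vcan Myl9 and Spon2 (0.988 each) and to Fbln2 Htra1 (0.993) and Gucy1a3 (0.992). For Postn they were Hs6st2 (0.992) and Lgals1 (0.988), for Nid1 Col6a2 (0.976) and Pi15 (0.973), and for Nid2 Sema3d (0.974) and Eln (0.969).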

How the data were processed

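Per the labels, RNA of the sorted cells was extracted with the RNeasy micro kit and sequenced as Ovation Solo libraries. Per the submitters' processing notes the tools were STAR, Picard and HTSeq and the build was GRCm38 (mm10). Versions, settings and use of strand were not given in the sources used here. The signal table that the authors deposited holds whole numbers per gene and library, taken here as read counts scaled to a common total of 20000000. In 3 libraries low values lay on whole steps. For the other 15, recovered reads rest on an inferred rounding up, which returned 99.8% to 100% of values exactly. No value column was left without a sample. Of 46868 rows, 790 repeated 179 gene IDs.

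The members and gene lists were chosen with earlier results of these data known. Groups follow the sample titles. The limma package (version 3.58.1, R version 4.3.3; moderated variances with a mean trend, robust option) was fitted to log2(signal + 1) of 22315 genes with a signal of at least 10 in at least 2 libraries, with 1 mean per group. Fold changes on this scale understate those of low genes. Luminal means the average of ER+ and ER- groups on the log scale, so folds differ from percentages of means. The scripts were tested on simulated data. Named beside the 10 members are the 2 genes nearest to each by correlation (those of Thbs1 are not reported here), up to 4 genes per other list with the largest called luminal over basal fold in pregnancy, and up to 3 with the largest called change of ratio from adult to pregnancy. Exceptions are stated. Alternatives were a pseudocount of 10, no filter, 2 other scalings, a replicate block, edgeR 4.0.16 on recovered reads, the compared libraries alone and each library left out. Leaving out both second puberty luminal libraries was added after seeing the data. Gene positions are from GENCODE vM21. Promoter windows were matched by symbol to a RefSeq table, which held 7 of the 10 genes. Figures were drawn with matplotlib 3.10.9 and tables joined with pandas 2.3.3 under Python 3.11.15. Read depths count reads, not molecules.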

Additional observations from a re-analysis of the deposited data

Results flagged for a closer look

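The luminal over basal effect differed between stages, by the test of the difference itself, in 4 cases. For Tnc the log2 ratio was higher in pregnancy than in adults by 3.84 and higher in pregnancy than at puberty by 4.4. For Sparc and Thbs1 the ratio was higher in pregnancy than in adults by 1.13 and 1.44. The ratios of Sparc and Thbs1 moved more in ER+ than in ER- luminal cells, a split that was not tested. The summed basal marker signal of luminal libraries, at 9.5% and 12.1% of the basal sum in pregnancy against 2.0% and 3.7% in adults, moved with these changes. The summed endothelial marker signal moved with them too, at 130.3% and 106.1% of the basal sum in pregnancy against 7.3% and 5.1% in adults. The part of either in the changes of Sparc, Thbs1 and Tnc was not tested. The luminal Tnc mean in pregnancy was 315.1% of the basal mean. Single basal markers reached at most 19.2% in ER+ and 32.1% in ER- luminal cells there. Single endothelial markers reached at most 366.9% and 123.6%, and single immune markers 147.4% and 387.7%.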

How the results depend on the processing

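The 24 counts of called genes were recomputed under 8 other settings and with each of 18 libraries left out. The single values of the 10 genes were recomputed too, but only for luminal over basal cells, together and by population, and for changes of that ratio. Those between luminal populations and between stages within a population are not included. Of 3120 such values, 2983 kept their side of the threshold, 75 lost a call, 62 gained one and 0 reversed while called. Some of the 2983 changed sign without a call, as did Tnc in pregnancy ER+ over basal cells (0.8, lowest value -0.04). Median-ratio scaling moved the median of all genes for luminal over basal cells in pregnancy to 0, against 0.17 in the deposited scaling, with 1447 of 3919 called genes higher, against 2471 of 4399. With quantile normalization 3174 of 5655 were higher at puberty, against 2265 of 4783, and 4090 of 7642 in adults, against 2740 of 6893. Counts of called genes among the 10 were 8 to 10 under these scalings at each stage. With 2 libraries per group the intervals are wide, and the adult luminal libraries are the shallowest.

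For pregnancy over puberty in ER- cells the count was 1 and became 2 with median-ratio scaling, with edgeR, with only the libraries compared and without both second puberty luminal libraries, and 3 with quantile normalization. For the adult minus puberty change of the ratio the count was 0 and became 1 with quantile normalization and 3 without both second puberty luminal libraries. For pregnancy over adult in basal cells it was 2 and became 4 with edgeR, with only the libraries compared and without both second puberty luminal libraries. Fitting only the libraries compared gave 3 for pregnancy over puberty in basal cells, against 0. It gave 0 for ER+ over ER- luminal cells in adults, for adult over puberty in ER+ and in ER- cells and for pregnancy over adult in ER+ cells, against 6, 4, 1 and 9. The cause was not tested, but these fits hold fewer samples.

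Taken by replicate number over 36 pairs of groups, deviations from the group means correlated at -0.09 to 0.27 and exceeded 0.1 in 1. That pair was puberty ER+ with puberty ER- luminal cells (0.27), the groups whose second libraries both stand apart. Low correlations over all tested genes do not exclude a pairing of the libraries. With the replicate block the count for pregnancy over puberty was 3 in ER- cells and 1 in basal cells, for pregnancy over adult in basal cells 4, and for the adult minus puberty change 1.

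With 1 library left out at a time, counts for luminal over basal cells ran from 8 to 9 at puberty, 8 to 9 in adults and 5 to 10 in pregnancy. For ER+ over basal cells they ran from 8 to 8, 8 to 9 and 5 to 7, and for ER- over basal cells from 7 to 7, 4 to 7 and 4 to 9. ER+ over ER- cells gave 1 to 1, 3 to 7 and 0 to 1. Adult over puberty gave 3 to 5 in ER+, 0 to 2 in ER- and 0 to 5 in basal cells. Pregnancy over adult gave 7 to 10, 2 to 5 and 0 to 4, and pregnancy over puberty 2 to 6, 1 to 4 and 0 to 0. The change of the ratio gave 0 to 2 for adult minus puberty, 1 to 3 for pregnancy minus adult and 0 to 1 for pregnancy minus puberty.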
